A study of Mus musculus with 12 samples.

Results

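The genes described here are 10 components of the circadian clock, read in all 12 RNA-seq libraries of mouse medial prefrontal cortex (mPFC). They were taken from the count table by symbol: Arntl (the gene of BMAL1), Clock, Npas2, Per1, Per2, Per3, Dbp, Nr1d1, Nr1d2 and Ciart. All 10 were among the 55401 gene IDs of the table, and all 10 passed the filter on low counts that left 21958 genes for testing. The libraries fall into 3 groups of 4, all from male mice and all labelled 2 weeks of extinction of conditioned place preference (CPP), in which a learned preference for a drug-paired chamber fades. One group had an adeno-associated virus (AAV) for knockdown of the serotonin receptor 5-HT6R with morphine (AAV-5-HT6Rkd-Morphine), one a scramble virus with morphine (AAV-Scramble-Morphine), and one the scramble virus with saline (AAV-Scramble-Saline). On build mm10, with GENCODE M21 annotation, Arntl (ENSMUSG00000055116) spans bases 113207465 to 113314126 of chromosome 7 on the plus strand and Dbp (ENSMUSG00000059824) bases 45705088 to 45710203 of the same chromosome and strand. Clock (ENSMUSG00000029238) spans bases 76209868 to 76304792 of chromosome 5 and Ciart (ENSMUSG00000038550) bases 95878503 to 95882251 of chromosome 3, both on the minus strand. All 10 are protein-coding genes. A virus of one kind or the other was thus common to all libraries, and no group paired the knockdown with saline. None of the sources used here gives the age or strain of the mice, the promoter of the virus or the time of day at which tissue was taken. Clock transcripts move with the hour, so any difference in the hour of sampling and a difference between groups cannot be told apart.

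The mammalian clock is a feedback loop of transcription. BMAL1 pairs with CLOCK, or in forebrain also with its relative NPAS2, and the pair activates genes that carry E-boxes, among them the Per, Nr1d, Dbp and Ciart genes. PER proteins and CHRONO, the product of Ciart, then repress that pair, while the nuclear receptors REV-ERBα and REV-ERBβ, from Nr1d1 and Nr1d2, repress Arntl and Npas2 through ROR response elements. DBP activates genes with D-boxes, Per3 among them. In most tissues with a running clock, Arntl therefore peaks when Dbp and the Nr1d genes are low, and the Per genes peak some hours after these. Cortex keeps such a rhythm under the pacemaker of the suprachiasmatic nucleus, and Per1 and Per2 also respond there to neuronal activity and glucocorticoids.

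The loop acts through short motifs in promoters, and the 4 promoters that hold most of the matches found are printed here. RefSeq promoter windows of build GRCm38.p6, each spanning a start of transcription, matched 9 members by symbol, with 2 windows for Arntl and Per1 and 3 for Clock. Per2 had none. They were searched on both strands for the E-box CACGTG, its variant CACGTT, the D-boxes TTATGTAA and TTACGTAA, the cAMP response element TGACGTCA and the ROR response element. No match overlapped another. Among all 32851 promoter windows, 7.15% held CACGTG, 4.68% CACGTT, 0.938% TTATGTAA, 0.119% TTACGTAA, 1.79% TGACGTCA and 0.384% the ROR response element. Ciart held 3 E-boxes and the first Per1 window 1. Per3 held 2 copies of TTATGTAA, the second Arntl window held 1 ROR response element, and Nr1d1 held 1 CACGTT on the opposite strand. The windows of Clock, Npas2, Dbp and Nr1d2 held no match, which says only that these letters were not in these bases. The sequences below run 5′ to 3′ on the strand of the gene, with matched motifs in capitals. They are the second Arntl window (chr7:113207261-113207560, plus strand), Ciart (chr3:95882179-95882478, minus strand), the first Per1 window (chr11:69098699-69098998, plus strand) and Per3 (chr4:151044616-151044915, minus strand).
Arntl: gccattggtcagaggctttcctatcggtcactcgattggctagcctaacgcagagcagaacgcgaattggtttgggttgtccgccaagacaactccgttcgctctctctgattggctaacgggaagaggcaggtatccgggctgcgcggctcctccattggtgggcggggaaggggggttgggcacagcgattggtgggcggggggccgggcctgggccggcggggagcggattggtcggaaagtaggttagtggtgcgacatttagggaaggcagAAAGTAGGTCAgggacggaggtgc
Ciart: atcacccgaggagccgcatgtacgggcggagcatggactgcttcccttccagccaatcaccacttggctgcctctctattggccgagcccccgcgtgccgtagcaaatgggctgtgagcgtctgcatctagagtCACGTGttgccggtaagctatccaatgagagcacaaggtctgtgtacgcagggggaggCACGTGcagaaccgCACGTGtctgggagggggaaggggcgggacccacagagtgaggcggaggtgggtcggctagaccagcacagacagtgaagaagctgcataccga
Per1: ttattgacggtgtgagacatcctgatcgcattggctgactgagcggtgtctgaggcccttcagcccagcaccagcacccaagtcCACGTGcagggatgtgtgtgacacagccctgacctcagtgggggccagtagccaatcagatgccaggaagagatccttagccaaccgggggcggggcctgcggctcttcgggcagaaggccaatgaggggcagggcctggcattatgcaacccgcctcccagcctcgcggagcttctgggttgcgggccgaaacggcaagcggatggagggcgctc
Per3: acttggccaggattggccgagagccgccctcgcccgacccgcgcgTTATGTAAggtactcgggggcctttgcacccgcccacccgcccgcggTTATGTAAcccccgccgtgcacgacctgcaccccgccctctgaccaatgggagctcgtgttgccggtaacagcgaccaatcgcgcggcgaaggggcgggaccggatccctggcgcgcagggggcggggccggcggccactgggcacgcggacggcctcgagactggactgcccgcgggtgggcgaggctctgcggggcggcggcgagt
A match is a description of the letters and not evidence of binding in these samples.

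**Figure D1:**
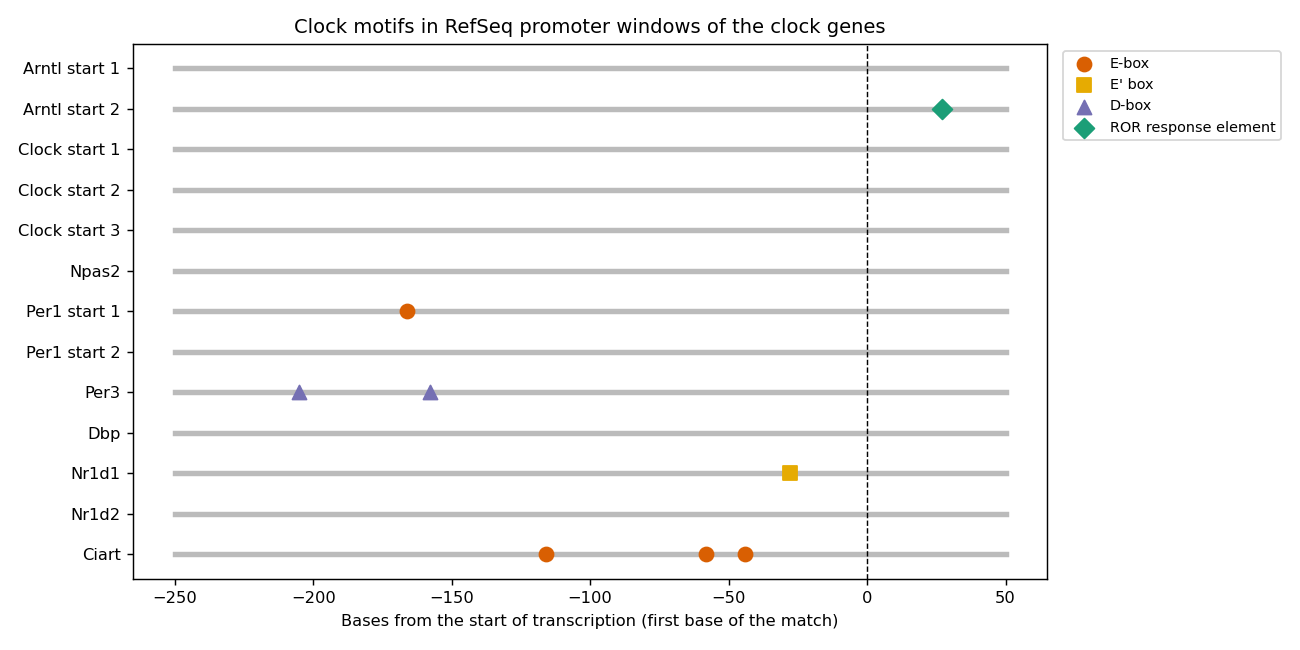
Matches to clock motifs in the RefSeq promoter windows of 9 clock genes, 1 grey bar per window, against distance in bases from the start of transcription. Ciart carries 3 E-boxes, Per3 carries 2 D-boxes and the second Arntl start carries the ROR response element.

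Total counts per library ran from 42840041 to 63253993 with the knockdown and morphine, from 41483220 to 65739423 with scramble and morphine and from 52387763 to 61716601 with scramble and saline. Every member had at least 391 counts in every library, so that counting error is small beside the spread between libraries. The 5 markers of cortical excitatory neurons summed to between 4174 and 5507 CPM, where CPM is the count scaled to library size. Of the markers of the suprachiasmatic nucleus, Nms had 0 counts in all 12 libraries and Avp and Six6 had 0 in 11 of them. Grp, which cortical cells also express, averaged 9.74 CPM. Htr6, the gene the virus targets, had 4.49, 5.30, 3.82 and 5.46 CPM with the knockdown, 5.30, 5.16, 4.82 and 5.58 CPM with scramble and morphine, and 5.45, 6.92, 4.35 and 7.98 CPM with saline. For knockdown against scramble it was fitted at -0.13 on the log2 scale (SE 0.18; edgeR adjusted p = 0.823), so a lower transcript was not detectable and knockdown is used here as the label of those libraries. The CT010467.1 locus of ribosomal RNA took 4.57 to 9.38% of a library with the knockdown, 2.38 to 3.04% with scramble and morphine and 3.58 to 5.63% with scramble and saline. Astrocyte markers summed to between 1019 and 1777, 1347 and 1868, and 1025 and 1789 CPM in the same order of groups. Oligodendrocyte markers summed to between 1054 and 1811, 1640 and 2265, and 1567 and 2058 CPM. Markers of pericytes and meninges summed to between 95.6 and 158, 73.0 and 100.5, and 62.7 and 93.8 CPM. The sums with the knockdown thus lay above those with saline. Means of Pdgfrb, Acta2, Col1a1 and Dcn were higher, but Kcnj8 averaged 3.61 CPM with the knockdown and 3.92 CPM with saline. The part of these markers in the results was not tested. A fit with the CT010467.1 share as a covariate was chosen after seeing the data. The shares with scramble and morphine did not overlap those of either other group, so this fit cannot fully part share from group. Values from the fit stand beside those of Ciart, Clock and Per1. For Arntl and Dbp they are part of the ranges over settings given for the knockdown comparisons. In bulk tissue, fewer cells of a type and less RNA per cell cannot be told apart. The labels do not state that each library is a separate animal, and the spread behind every p-value may therefore be technical.

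No library stood apart from the other 3 of its group by Dixon's test in any member, but some lay at the end of their group for many members. Scramble saline replicate 4 was the lowest of its group for 6 of the 10 members and scramble morphine replicate 4 the highest of its group for 6. Knockdown replicate 5 held both the highest Clock and the lowest Dbp of all 12 libraries.

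All 10 genes were well expressed in this tissue. Per kilobase of exon, Nr1d1 was the most abundant at 27.9 ± 2.96 CPM per kilobase (SD, n = 12), followed by Dbp at 23.9 ± 3.88, Nr1d2 at 20.6 ± 1.24 and Per1 at 19.995 ± 2.78. The levels per kilobase of these 4 genes overlapped from library to library. All 12 libraries then had a gap to Per2, at 10.1 ± 1.27 CPM per kilobase, whose range did not meet that of Per1. Npas2 at 9.77 ± 0.812, Per3 at 8.10 ± 0.743, Ciart at 6.52 ± 1.51, Clock at 5.30 ± 0.811 and Arntl at 3.38 ± 0.678 CPM per kilobase completed the order. Each of these neighbours overlapped in range, although Npas2 lay above Per3 in 12 of 12 libraries. Npas2, whose protein can pair with BMAL1 in forebrain, thus had more counts per length than Clock. Without division by length the order was the other way, at 46.8 CPM for Npas2 and 72.8 CPM for Clock. The length used takes in all annotated exons, 4791 bases for Npas2 and 13727 for Clock, so the order depends on it. Nr1d1 and Dbp, which head the order, share 263 and 539 exon bases with Thra and Sphk2 on the opposite strand. Whether counting used the strand is not stated, so their levels are uncertain.

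The members differed in how much they varied. Ciart had the widest spread, 2.29-fold between its highest and lowest library, then Dbp at 2.02-fold and Arntl at 1.92-fold. The SD of log2 CPM over the 12 libraries was 0.36 for Ciart, 0.27 for Arntl, 0.26 for Dbp and 0.24 for Clock, where the median of 15982 genes of at least 1 CPM was 0.17. Nr1d2 was the steadiest, with an SD of 0.09 and a 1.19-fold range. Nr1d1 and Nr1d2 encode receptors of the same family, and the first spread more than the second, with an SD of 0.16. The 3 Per genes had SDs of 0.20 for Per1, 0.19 for Per2 and 0.14 for Per3. Npas2 had one of 0.12.

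**Figure D2:**
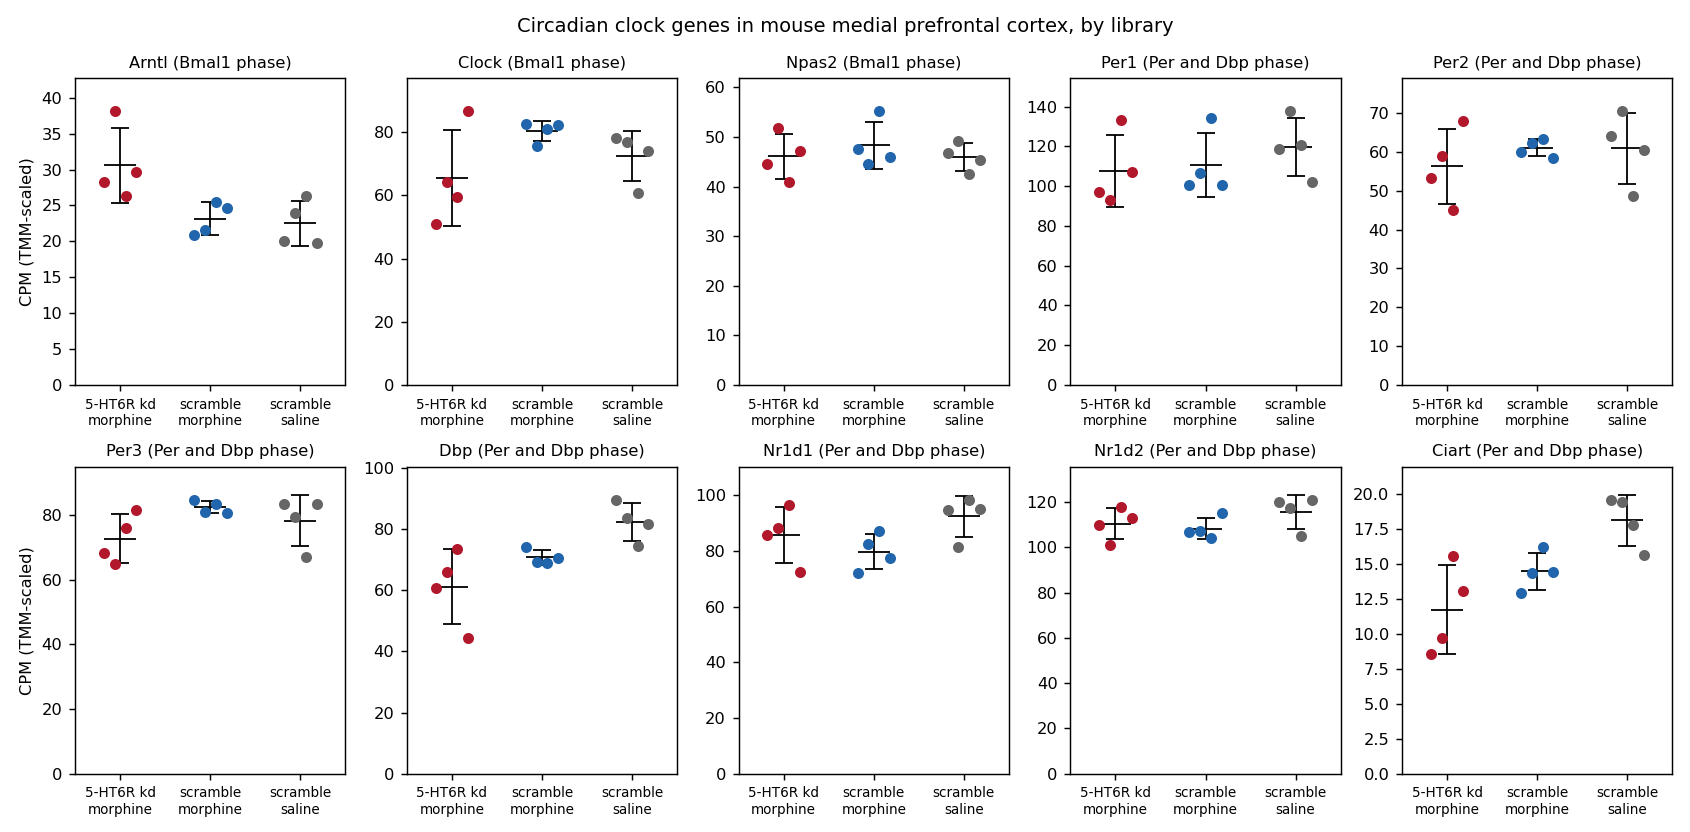
CPM of each clock gene in every library, with the knockdown and morphine at left, scramble and morphine in the middle and scramble and saline at right, as points with the mean and SD (n = 4 each). Arntl in the knockdown libraries sits between 26.3 and 38.1 CPM, and the means of Dbp and Ciart are highest with saline, at 82.3 and 18.1 CPM.

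The comparison of knockdown with scramble, both with morphine, sets the virus labelled 5-HT6R knockdown against scramble after morphine. In it Arntl was the member with the smallest p, and it stood on the high side with the knockdown. Its levels were 28.2, 38.1, 26.3 and 29.7 CPM in knockdown replicates 1, 2, 3 and 5, and 20.9, 21.6, 25.5 and 24.7 CPM in scramble replicates 1, 3, 4 and 5. All 4 knockdown libraries lay above all 4 scramble libraries. The means were 30.6 ± 5.20 CPM with the knockdown and 23.2 ± 2.24 CPM with scramble (SD, n = 4 each), a log2 fold change of 0.40 (SE 0.12), whose 95% interval as a fold ran from 1.10 to 1.58. Over all genes its edgeR adjusted p was 0.289, and the p before adjustment was 0.00527, so the difference did not pass. Over 23 other settings, the covariate fit among them, the log2 fold change ran from 0.28 to 0.47 and passed in none.

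Clock, whose protein is the partner of BMAL1 and a histone acetyltransferase, lay the other way. It stood at 51.1, 64.3, 59.6 and 86.6 CPM in the knockdown libraries and at 82.5, 75.7, 81.1 and 82.3 CPM in the scramble libraries. Knockdown libraries 1, 2 and 3 lay below every scramble library, and knockdown replicate 5 lay above them all. Clock was fitted at -0.30 on the log2 scale (SE 0.13; edgeR adjusted p = 0.385). Without knockdown replicate 5 it was -0.47 with an edgeR adjusted p of 0.0281, the only setting in which a member passed in this comparison. In that fit 375 genes passed over the whole table, against 0 in the main fit, so the call was not particular to Clock. Knockdown replicate 1, with the lowest Clock level, also had the highest share at CT010467.1, 9.38%, and with that share as a covariate Clock stood at -0.03. The part of the share in the Clock values was not tested. Npas2 averaged 46.1 ± 4.51 CPM with the knockdown and 48.3 ± 4.75 CPM with scramble (SD, n = 4 each), with a fold whose 95% interval was 0.843 to 1.08. The 3 genes of the Bmal1 phase thus did not move as one.

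On the other side of the loop, the repressor genes Per1, Per2 and Per3 averaged 108 ± 18.1, 56.3 ± 9.58 and 72.7 ± 7.60 CPM with the knockdown and 110.5 ± 16.0, 61.1 ± 2.22 and 82.4 ± 1.92 CPM with scramble (SD, n = 4 each). Per3 was at a log2 fold change of -0.18 (SE 0.08, edgeR adjusted p = 0.396), with 68.3, 64.8, 76.0 and 81.7 CPM in the knockdown libraries and 84.6, 80.9, 83.5 and 80.8 CPM in the scramble libraries. Only knockdown replicate 5 reached into the scramble range. Per1 and Per2 overlapped widely between groups and were fitted at -0.04 (SE 0.12) and -0.12 (SE 0.12) on the log2 scale. Per2 was at -0.03 without knockdown replicate 3 and at -0.23 without knockdown replicate 5. The Per1 value turned to 0.02, 0.005 and 0.07 without knockdown replicate 2, knockdown replicate 1 or scramble morphine replicate 4, and to 0.25 with the CT010467.1 share as a covariate.

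The output activator Dbp and the BMAL1 repressor Ciart had lower means with the knockdown, and neither passed. Dbp stood at 60.8, 66.03, 73.4 and 44.4 CPM with the knockdown and 74.0, 69.1, 69.0 and 70.6 CPM with scramble, a log2 fold change of -0.21 (SE 0.11, edgeR adjusted p = 0.475). Without knockdown replicate 5 it was -0.09, and over 23 other settings, this one included, it ran between -0.31 and -0.09. Ciart stood at 8.54, 9.72, 15.5 and 13.05 CPM with the knockdown and 12.9, 14.3, 16.2 and 14.4 CPM with scramble, a log2 fold change of -0.30 (SE 0.16, adjusted p = 0.457). Its lowest values were those of knockdown replicates 1 and 2, the libraries with the largest shares at CT010467.1 (9.38 and 6.79%). With that share as a covariate Ciart was at 0.25. The shares of knockdown and scramble libraries did not overlap, and the part of the share in the Ciart values was not tested. Ciart was at -0.18 without knockdown replicate 1 and at -0.47 without knockdown replicate 3. The REV-ERB genes, Nr1d1 at 0.10 (SE 0.09) and Nr1d2 at 0.03 (SE 0.06), were the only members besides Arntl above 0. Nr1d2 turned to -0.04 with library totals as the only scaling.

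None of the 10 members was called by edgeR in this comparison, where 0% of all genes tested were, and 3 members (Arntl, Clock and Per3) had an unadjusted p under 0.05, as did 12% of all genes. Of these members 1 was higher and 2 were lower, against 5.87% of all genes higher and 6.17% lower. DESeq2 and limma voom called 0 members too, each with 3 at an unadjusted p under 0.05. Groups did not overlap for 1 member, against 5.85% of all genes. That member, Arntl, was higher, where 2.59% of all genes were higher and 3.26% lower. Values lay above 0 for 3 members and below 0 for 7, where 50.7% of all genes lay above and 49.3% below. The median log2 fold change over the 10 members was -0.09 and over all genes 0.004.

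**Figure D3:**
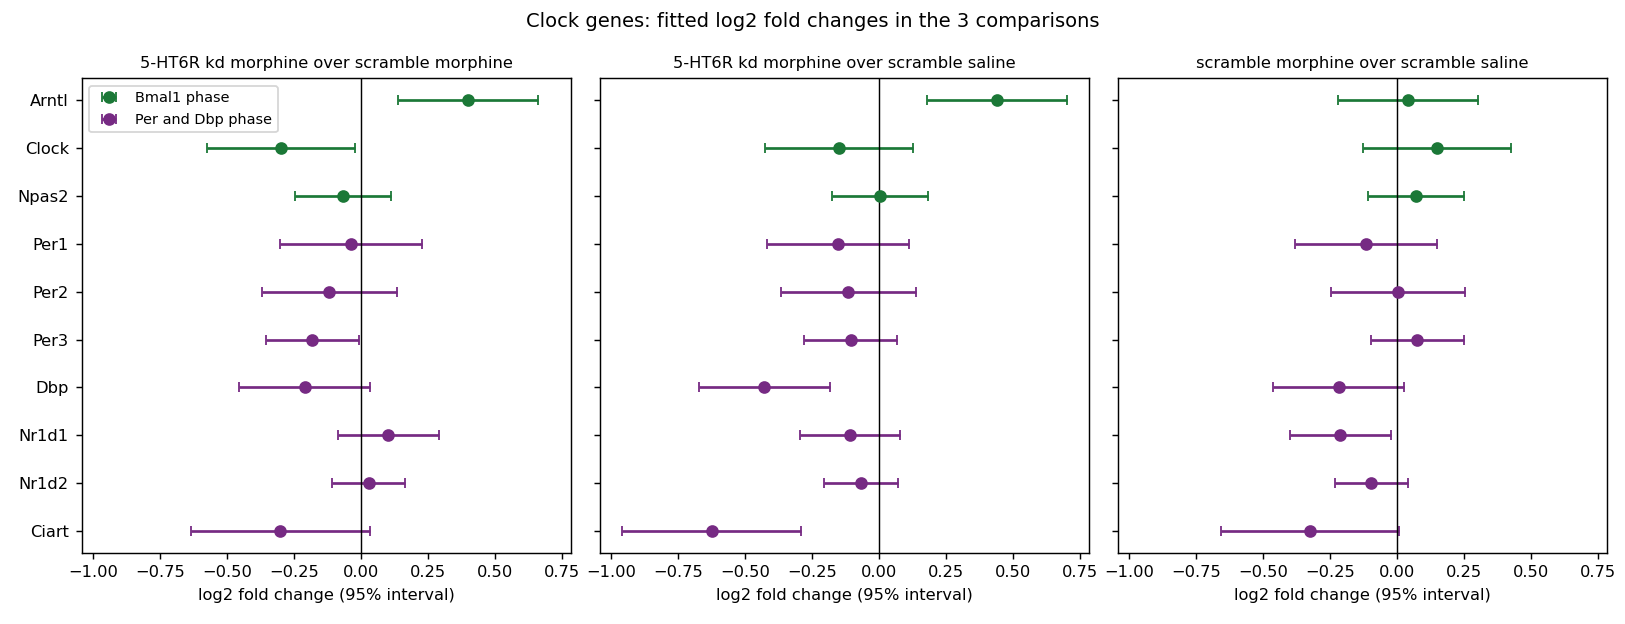
Fitted log2 fold change of each clock gene with its 95% interval in the 3 comparisons, green for the Bmal1 phase and purple for the Per and Dbp phase. Arntl lies at 0.40 and 0.44 in the knockdown comparisons and 0.04 for morphine against saline, while Ciart lies at -0.30, -0.63 and -0.32.

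Set against scramble with saline, the knockdown with morphine differs in both virus and drug. This comparison shares its knockdown libraries with the one above and its saline libraries with the one that follows, so the values are given side by side and not as independent evidence. Ciart had the smallest p among the members. The 4 knockdown values, between 8.54 and 15.5 CPM, lay below the saline values of 19.5, 19.4, 17.7 and 15.6 CPM in replicates 2, 3, 4 and 5. The means were 11.7 ± 3.18 CPM with the knockdown and 18.1 ± 1.83 CPM with saline (SD, n = 4 each). This is a log2 fold change of -0.63 (SE 0.16), a fold of 0.648 with a 95% interval from 0.514 to 0.818, and the edgeR adjusted p was 0.301. With the CT010467.1 share as a covariate Ciart was at -0.36 (edgeR adjusted p = 0.717).

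Dbp lay the same way, with the 4 knockdown values between 44.4 and 73.4 CPM and saline values of 89.5, 83.6, 74.5 and 81.6 CPM. No knockdown library reached the saline range, although knockdown replicate 3 at 73.4 and saline replicate 4 at 74.5 CPM came close. Fitted, this was -0.43 on the log2 scale (SE 0.11), a fold of 0.743 with a 95% interval from 0.627 to 0.880, and the edgeR adjusted p was 0.314. Dbp shares 539 bases of exon with Sphk2 on the opposite strand, and none of the sources used here says whether counting used the strand. Sphk2 averaged 31.8 CPM and stood at a log2 fold change of 0.12 (SE 0.09) in this comparison, with a 95% interval from -0.07 to 0.31. The part of the shared bases in the Dbp value was not tested.

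Arntl was again on the high side, with saline values of 20.1, 23.9, 26.3 and 19.8 CPM against the knockdown values of 28.2, 38.1, 26.3 and 29.7 CPM. The groups did not overlap by a narrow margin, as knockdown replicate 3 had 26.32 and saline replicate 4 had 26.26 CPM. Fitted, this was 0.44 on the log2 scale (SE 0.12), a fold of 1.36 with a 95% interval from 1.13 to 1.63, and the edgeR adjusted p was 0.339.

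The other members moved less. All 7 genes of the Per and Dbp phase lay below 0 in this comparison, between -0.63 for Ciart and -0.07 for Nr1d2, with Per1 at -0.15, Per2 at -0.11, Per3 at -0.11 and Nr1d1 at -0.11. The intervals of the last 4 and of Nr1d2 included 0. Clock stood at -0.15 (SE 0.13) and Npas2 at 0.004 (SE 0.08), whose sign turned in several settings. Clock was at -0.05 without knockdown replicate 1, at -0.32 without knockdown replicate 5 and at -0.03 with the CT010467.1 share as a covariate, where Per1 was at -0.01. With libraries left out in turn, Per1 ran between -0.27 and -0.08, Per2 between -0.22 and -0.02, Per3 between -0.17 and -0.06 and Nr1d1 between -0.17 and -0.04. Over the members the median was -0.11, against -0.002 over all genes.

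No member was called by edgeR here, where 0.0137% of all genes were, namely 3 genes that are not members. DESeq2 called 2 members, Ciart (adjusted p = 0.0267) and Dbp (adjusted p = 0.0483), both lower, with Arntl at an adjusted p of 0.0682. Over all genes DESeq2 called 147 of 21958, far more than edgeR did. Limma voom called 0 members. In edgeR, 3 members had an unadjusted p under 0.05, against 9.35% of all genes. Of them 1 was higher and 2 were lower, where 4.97% of all genes were higher and 4.37% lower by that measure. Groups did not overlap for the same 3 genes, against 4.34% of all genes. Arntl was higher and Dbp and Ciart lower, where 2.18% of all genes were higher and 2.16% lower. Values lay above 0 for 2 members and below 0 for 8, where 49.6% of all genes lay above and 50.4% below. Leaving out each of the 12 libraries in turn kept the 3 log2 fold changes between 0.32 and 0.52 for Arntl, -0.53 and -0.31 for Dbp and -0.79 and -0.50 for Ciart, with the smallest adjusted p at 0.0861. Over all 23 other settings, the covariate fit among them, they ran from 0.32 to 0.59, -0.57 to -0.31 and -0.80 to -0.36 in that order.

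**Figure D4:**
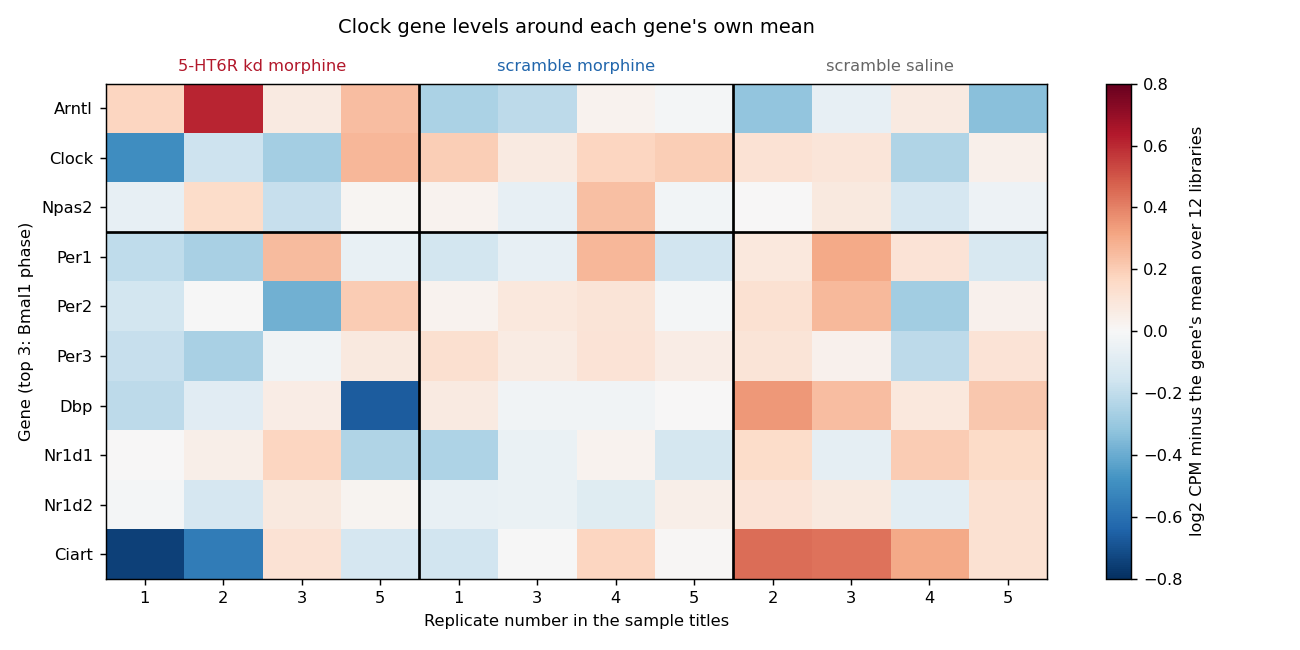
Levels of the 10 clock genes in the 12 libraries as log2 CPM minus each gene's own mean, red above and blue below, with the knockdown libraries at left and the saline libraries at right. Arntl is above its mean in all 4 knockdown libraries and Ciart is above its mean in all 4 saline libraries.

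Morphine against saline with the scramble virus asks what morphine itself left behind. Dbp was the member whose groups did not overlap, with 74.0, 69.1, 69.0 and 70.6 CPM after morphine and 89.5, 83.6, 74.5 and 81.6 CPM after saline. Its means were 70.7 ± 2.34 CPM with morphine and 82.3 ± 6.18 CPM with saline (SD, n = 4 each). This is a log2 fold change of -0.22 (SE 0.11), a fold of 0.859 with a 95% interval from 0.726 to 1.02, and the edgeR adjusted p was 0.999. Its margin between the groups was again that of saline replicate 4.

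Nr1d1 stood at 72.0, 82.3, 87.1 and 77.6 CPM with morphine and 94.8, 81.4, 98.3 and 95.0 CPM with saline. Saline replicate 3 fell inside the morphine range and the other saline libraries lay above it. It was fitted at -0.21 on the log2 scale (SE 0.09), with an unadjusted p of 0.0297 and an edgeR adjusted p of 0.999. Nr1d1 shares 263 bases of exon with Thra on the opposite strand. Thra, a far more abundant gene at 699 CPM, stood at -0.06 (SE 0.08).

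Ciart had 12.9, 14.3, 16.2 and 14.4 CPM with morphine and 19.5, 19.4, 17.7 and 15.6 CPM with saline, a log2 fold change of -0.32 (SE 0.16, edgeR adjusted p = 0.999). Only morphine replicate 4 reached into the saline range. With the CT010467.1 share as a covariate Ciart was at -0.62, Per1 at -0.26 and Clock at 0.006, none of which passed. Nr1d2 stood at -0.10 (SE 0.06) and Per1 at -0.12 (SE 0.12), and Per1 was at -0.22 without scramble morphine replicate 4 and at -0.04 without scramble saline replicate 3. Per2 and Per3 were at 0.003 (SE 0.12) and 0.08 (SE 0.08), the first with a 95% interval of the fold from 0.842 to 1.19. The Bmal1 phase showed small positive values, with Arntl at 0.04 (SE 0.12), Clock at 0.15 (SE 0.13) and Npas2 at 0.07 (SE 0.08). The fold of Arntl had a 95% interval of 0.859 to 1.23, and the value turned negative without scramble saline replicate 2 or 5 or scramble morphine replicate 4.

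EdgeR called 0 of the 10 members for morphine against saline, where 0% of all genes were called, and 1 member, Nr1d1, had an unadjusted p under 0.05, where 3.48% of all genes did. It was lower, where 1.67% of all genes were higher and 1.82% lower. DESeq2 and limma voom called 0 members, each with 2 at an unadjusted p under 0.05. Groups did not overlap for 1 member, against 3.32% of all genes. That member, Dbp, was lower, where 1.55% of all genes were higher and 1.77% lower. Values lay above 0 for 5 members and below 0 for 5, where 49.5% of all genes lay above and 50.5% below. The median log2 fold change was -0.05 over the members and -0.001 over all genes.

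The Per and Dbp phase can be set against the Bmal1 phase within each library, which leaves library scaling out of the value. The difference was taken as the mean log2 CPM of the 7 Per and Dbp phase genes minus that of Arntl, Clock and Npas2. It is a description over chosen genes and carries no test. It stood at 0.48, 0.19, 0.74 and 0.28 in knockdown replicates 1, 2, 3 and 5. In the scramble morphine libraries 1, 3, 4 and 5 it was 0.52, 0.63, 0.50 and 0.49, and in the saline libraries 2, 3, 4 and 5 it was 0.83, 0.72, 0.69 and 0.77. The group means were 0.42 ± 0.24 with the knockdown and morphine, 0.54 ± 0.06 with scramble and morphine and 0.75 ± 0.06 with scramble and saline (SD, n = 4 each). All 4 scramble morphine libraries lay below all 4 saline libraries, and 3 of the 4 knockdown libraries lay below all scramble morphine libraries, while knockdown replicate 3 lay within the saline range. The differences between groups were -0.11 for knockdown against scramble, -0.33 for knockdown against saline and -0.21 for morphine against saline, on the log2 scale. The first was smaller than the SD within the knockdown group.

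Each phase can also be taken on its own. Around each gene's mean over the 12 libraries, the Per and Dbp phase stood at -0.12 ± 0.11 with the knockdown, -0.003 ± 0.06 with scramble and morphine and 0.12 ± 0.08 with saline (SD, n = 4 each). The Bmal1 phase stood at 0.03 ± 0.18, 0.03 ± 0.09 and -0.06 ± 0.07 in the same order of groups. The Bmal1 phase varied most in the knockdown group, where Arntl was above its mean in every library and Clock below it in 3 of 4. For Dbp minus Arntl alone, the log2 difference averaged 0.99 ± 0.39 with the knockdown, 1.61 ± 0.17 with scramble and morphine and 1.88 ± 0.29 with saline. All 4 knockdown libraries reached at most 1.48 by this measure, against at least 1.44 with scramble and morphine and at least 1.503 with saline.

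**Figure D5:**
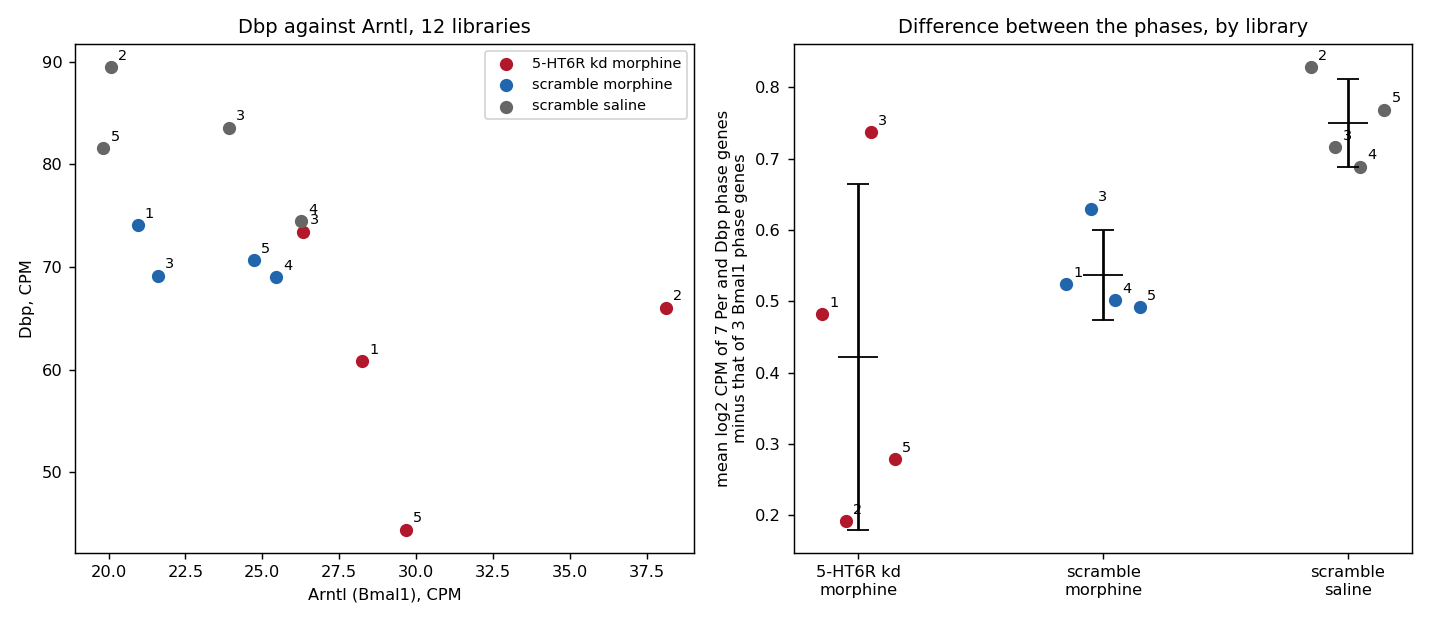
At left, CPM of Dbp against CPM of Arntl in each library, labelled with its replicate number. At right, the mean log2 CPM of 7 Per and Dbp phase genes minus that of 3 Bmal1 phase genes per library, with the mean and SD (n = 4 each), where group means are 0.42, 0.54 and 0.75 from left to right.

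Across the 12 libraries Pearson's r of Arntl was below 0 with the genes of the other phase, for some of them close to 0. Only 1 of these relations passed adjustment. Of 9 relations, Pearson's r was below 0 for 8, among them that with the partner gene Clock. Arntl and Per3 had r = -0.74 (permutation p = 0.00468, adjusted 0.0421 over the 9) and Spearman's rho = -0.66 (permutation p = 0.0222, adjusted 0.0999). Without the 2 libraries farthest from the Arntl median, knockdown replicate 2 and scramble saline replicate 5, r was -0.53 with an adjusted permutation p of 0.522, so the call was lost over the remaining 10 libraries. Centred on the group means, r was -0.68 (adjusted permutation p = 0.0647). Centred values were permuted over all 12 libraries as if no group means had been removed, so their p-values may be too small. Arntl and Dbp had r = -0.60 (permutation p = 0.0499, adjusted 0.1497) and rho = -0.76 (permutation p = 0.00595, adjusted 0.0535), and r was -0.72 over the remaining 10 libraries (adjusted 0.0922). With values centred on the group means, r was -0.18 for Dbp and -0.14 for Ciart (adjusted permutation p = 0.983 for both), while Nr1d2 had the value farthest from 0 of the 9, -0.72 (adjusted permutation p = 0.0647). For Ciart and Nr1d2, r was -0.60 and -0.53 (adjusted permutation p = 0.1497 and 0.166), and rho was -0.50 for both (adjusted 0.237). For Per1, Per2 and Nr1d1 it was -0.21, -0.20 and -0.04 (adjusted 0.588, 0.588 and 0.902), with rho at -0.17, -0.33 and 0.03 (adjusted 0.776, 0.535 and 0.939). Among 13985 genes ordered from the highest r with Arntl, these 3 stood at ranks 9069, 8980 and 7002. Centred on the group means, their r was -0.006, 0.07 and 0.03 (adjusted permutation p = 0.983 for each). With its own partners Arntl had r = -0.40 for Clock and 0.23 for Npas2 (adjusted 0.362 and 0.588), and rho = -0.27 and 0.04 (adjusted 0.585 and 0.939). No group has 6 libraries, so no value within one group is given.

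Other transcripts followed Arntl or Dbp more closely than any clock gene did, among 13985 other genes of at least 1 CPM that are not predicted models. Those most like Arntl over the 12 libraries were Amd2 (r = 0.91), Zfp551 (0.91), Bri3bp (0.91) and Smarcal1 (0.90). Those most opposed were Serpinb1a (-0.98), Zfp28 (-0.92), Mapk7 (-0.91) and Hspa9 (-0.91). For Dbp the most alike were Galk1 (0.92), Rbm12 (0.92), Mrpl58 (0.91) and Hgh1 (0.90), and the most opposed were Prdm2 (-0.92), Grk5 (-0.88), Mcc (-0.86) and Pask (-0.84). These are the extremes of many correlations over libraries that share group and composition, given as a description. Amd2 belongs to a family of near-identical copies, whose counts are uncertain. Of the members, Per3 was the one most opposed to Arntl, at rank 13786 from the highest, and Ciart the one most like Dbp, at rank 630 with r = 0.58. Clock genes outside the members were not looked up in these orders.

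The rest of the clock was read from a list of 24 further genes, all of which were tested. None was called by edgeR in any comparison. Nfil3, a repressor of D-box genes that is itself driven through ROR response elements, stood at 7.99, 7.63, 6.07 and 7.33 CPM with the knockdown, 5.87, 5.14, 6.62 and 5.33 CPM with scramble and morphine, and 4.18, 5.06, 6.34 and 4.45 CPM with saline. Nfil3 was fitted at 0.34 on the log2 scale (SE 0.16, edgeR adjusted p = 0.408) for knockdown against scramble and 0.53 (SE 0.16, adjusted p = 0.35) for knockdown against saline. Only knockdown replicate 3 reached into the range of either other group.

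Cry1, a partner of the PER proteins in repression, lay low with the knockdown at 20.2 ± 3.64 CPM, against 27.0 ± 2.88 CPM with scramble and morphine (SD, n = 4 each), a log2 fold change of -0.42 (SE 0.16, edgeR adjusted p = 0.353). Wee1, a cell cycle kinase with E-boxes, was at 0.19 (SE 0.09) both for knockdown against saline and for morphine against saline, with adjusted p of 0.533 and 0.999. For morphine against saline, Cirbp, a cold-induced RNA-binding protein that follows body temperature, was at -0.25 (SE 0.13), and Usp2, a deubiquitinase under clock control, was at 0.14 (SE 0.08) for knockdown against scramble. Of the 24 genes, 1 was higher and 1 lower at an unadjusted edgeR p under 0.05 for knockdown against scramble. For knockdown against saline 3 were higher, and for morphine against saline 0 genes stood under that threshold. Over all genes 12, 9.35 and 3.48% did, in the same order. The medians of the list were -0.06, -0.07 and 0.01 in that order.

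Per1 is also a target of the glucocorticoid receptor in rodents, and the clock list meets the glucocorticoid-induced genes there. The 13 listed genes of that kind had a median log2 fold change of 0.13 for knockdown against scramble, 0.31 for knockdown against saline and 0.24 for morphine against saline, where Per1 stood at -0.04, -0.15 and -0.12. The medians over all genes were 0.004, -0.002 and -0.001. At an unadjusted p under 0.05, 1, 6 and 7 of the 13 were higher and 0 lower, against 5.87, 4.97 and 1.67% of all genes higher. EdgeR called 3 of the 13, Zbtb16, Plin4 and Fmo2, all for knockdown against saline and all higher, where 0.0137% of all genes were called. The edgeR adjusted p of each was 0.0489, just under the threshold. With library totals as the only scaling, 0 genes were called in that comparison. For knockdown against scramble 5 of the 13 lay below 0, the lowest at -0.16, and for knockdown against saline 1 did, at -0.007. For morphine against saline 3 of the 13 lay below 0, between -0.24 and -0.12.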

How the data were processed

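The authors deposited whole-number counts per gene for 12 libraries of paired-end reads. Per the labels' protocols, mRNA was taken with oligo(dT) beads and the second strand carried dUTP. The submitters' processing notes list HISAT2 2.0.4, StringTie 1.3.4d, cutadapt 1.9, edgeR and DESeq2 and the build mm10. None says how counting was done or if it used strand, so genes overlapping on opposite strands are uncertain. Of 55401 gene IDs, 55141 matched a symbol. Positions, exon lengths and overlaps came from GENCODE M21 on the same assembly.

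In edgeR 4.0.16 (R 4.3.3), filterByExpr at its minimum of 10 counts kept 21958 genes. After TMM scaling, all 12 libraries entered a single quasi-likelihood fit with robust dispersion and a mean for each group. Residual degrees of freedom were 9 and the biological coefficient of variation was 23.2%. Tests were two-sided, with Benjamini-Hochberg adjustment over all genes at 0.05. CPM values use TMM-scaled totals, and log2 CPM a prior count of 2. Correlations were tested with 100000 permutations, two-sided. Values centred on the group means were permuted over all 12 libraries in the same way, which can make their p too small.

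Alternatives were DESeq2 1.42.0, limma 3.58.1 voom, other scalings and filters, the compared groups alone, a replicate block, each library left out, scramble saline 4 and knockdown 3 left out together, and, chosen after seeing the data, the share at CT010467.1 as a covariate. The steps were tested on simulated data. All 10 members were named. Of the other clock genes, those with the 3 smallest p per comparison were named, except 1 gene that is not reported here, and for Arntl and Dbp the 4 genes most like and most unlike each. Zbtb16, Plin4 and Fmo2 were named after their values were seen. Members, lists and rules were chosen with earlier results of these data known. Any pair of libraries within a group differed by over the sampling noise, with a chi-square per gene of at least 13.4.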

Additional observations from a re-analysis of the deposited data

How the results depend on the processing

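Of the 10 clock genes, edgeR called 0 in each comparison under every scaling and filter, in the compared groups alone and with the replicate block. The exceptions were DESeq2, with 2 members for knockdown against saline, and the fit without knockdown replicate 5, with 1 for knockdown against scramble. With each library left out, the count of members ran from 0 to 1 for knockdown against scramble and was 0 otherwise.

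Counts over all genes were 0 for knockdown against scramble, 3 for knockdown against saline and 0 for morphine against saline. They were 157, 147 and 4 with DESeq2. They were 2 for knockdown against scramble and 5 for knockdown against saline without the filter. With the compared groups alone they were 5 for knockdown against saline and 1 for morphine against saline. For knockdown against saline the count was 0 with library totals as the only scaling, with limma voom and with the share at CT010467.1 as a covariate. With scramble saline 4 and knockdown 3 both left out it was 5 for knockdown against scramble and 0 for knockdown against saline. With each library left out in turn the counts ran from 0 to 375, 0 to 55 and 0 to 0, with 375 and 55 both reached without knockdown replicate 5. The causes were not tested.

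With the replicate number as a block the counts over all genes were 2, 0 and 1 in the same order, and Per1 turned to 0.030 for knockdown against scramble. The labels do not say what a number marks. Deviations of libraries with the same number correlated between -0.06 and 0.27, so pairing was not taken as given, and 4 of 6 samples in each comparison correlated best with their own number.

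Members near 0 changed sign. Library totals gave Nr1d2 -0.036 for knockdown against scramble and Npas2 -0.044 for knockdown against saline. Npas2 in that comparison was also -0.0068 without the filter, -0.0033 with limma voom and -0.030 with the covariate, and ran from -0.056 to 0.057 with libraries left out. Per2 for morphine against saline was -0.0022 with genes of at least 1 CPM only and -0.095 with scramble saline 4 and knockdown 3 both left out. The covariate gave Per1 0.25 and Ciart 0.25 for knockdown against scramble. With libraries left out, for knockdown against scramble Per1 ran from -0.16 to 0.068, Nr1d2 from -0.0041 to 0.068 and Npas2 from -0.13 to 0.0016. For morphine against saline Arntl ran from -0.013 to 0.12 and Per2 from -0.095 to 0.082.

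The difference between the phases kept its sign in the 18 other settings in which it was taken. It was not taken with the CT010467.1 share as a covariate, with DESeq2 or limma voom, or in the compared groups alone. Nor was it taken with the replicate block or under the other filters. Taken as Dbp minus Arntl alone it was -0.62 for knockdown against scramble and -0.89 for knockdown against saline. With libraries left out it ran from -0.22 to -0.04, -0.43 to -0.25 and -0.24 to -0.19 in the order above. Among the relations of Arntl, library totals gave r = -0.71 for Dbp and -0.74 for Nr1d2, which then passed (adjusted permutation p = 0.0340 and 0.0289), and -0.0053 for Npas2. Centred on group means, r was -0.68 for Per3 (adjusted permutation p = 0.0647), -0.72 for Nr1d2 (adjusted 0.0647), -0.14 for Ciart, 0.066 for Per2 and 0.034 for Nr1d1. Without the 2 libraries farthest from the Arntl median it was -0.53 for Per3, -0.14 for Npas2 and 0.0033 for Per1. Of 36 groups of 4 libraries examined, none held a library apart from the other 3 by Dixon's test, which has little power at 4 values. A p that misses the threshold at 4 libraries a group does not show that levels were alike.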
